A study of Mus musculus with 7 samples.

Results

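Cohesin subunit transcripts were compared between wild-type and *Meioc*-null mouse testes. The set was chosen by name and holds 9 of the 21928 genes quantified, of which 4 encode meiosis-specific subunits (*Rec8*, *Rad21l*, *Smc1b* and *Stag3*) and 5 encode subunits that dividing cells use in general, called mitotic here (*Rad21*, *Smc1a*, *Smc3*, *Stag1* and *Stag2*). All 9 were among the 13630 genes that passed the filter on low values, which asked for 1 TPM (a length-corrected level with one common sum per library) or more in 3 or more of the 7 libraries. The 4 wild-type and 3 *Meioc*-null libraries were ribosomal-RNA-depleted total RNA, each made from 1.5 whole testes of a single C57BL/6N pup. The *Meioc*-null pups carried the null allele *Meioc* tm1.1Dpc, on the same strain background. All pups, wild-type ones included, received daily injections of WIN 18,446, a blocker of retinoic acid synthesis, on P2 through P8 (0.1 mg per g body weight), and retinoic acid itself on P9 (0.0125 mg per g). Testes were taken 6.75 days after the retinoic acid, when they were enriched for preleptotene spermatocytes, the cells that undergo meiotic DNA replication. Whole testes also hold Sertoli, Leydig and other somatic cells, in which the mitotic subunits are transcribed as well, and in bulk RNA fewer cells of a type and less RNA per cell cannot be told apart.

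Cohesin is a ring that holds sister chromatids together. SMC3 pairs with an SMC1 protein, a kleisin closes the ring, and a STAG protein binds the kleisin. Somatic cells build the ring from SMC1A, RAD21 and STAG1 or STAG2. Germ cells entering meiosis add SMC1B, the kleisins REC8 and RAD21L, and STAG3, and these meiotic complexes form the core of the chromosome axes on which homologs pair and recombine. SMC3 has no meiotic counterpart and serves both kinds of ring.

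Of the 4 meiosis-specific subunits, 3 were more abundant in wild-type than in *Meioc*-null testes: the kleisin *Rad21l* by 4.82-fold, *Smc1b* by 3.33-fold and *Stag3* by 2.61-fold. The fourth, the kleisin *Rec8*, did not pass the test. Among the mitotic subunits, *Rad21* was lower in wild type, at 0.780 of the null level, and *Smc3* was 1.33-fold higher, while *Smc1a*, *Stag1* and *Stag2* did not pass. The calls for *Rad21* and *Smc3* depended on single libraries and settings, as given beside their values, and the other 3 calls were kept in every alternative run. These calls are at an adjusted p under 0.05 (quasi-likelihood test of edgeR, Benjamini-Hochberg over all 13630 genes), and 7.77% of genes were called higher in wild type, 3.33% lower and 11.1% in either direction. Positive log2 fold changes throughout are higher in wild type. The median log2 fold change was 1.56 over the 4 meiosis-specific subunits and 0.051 over the 5 mitotic ones, beside −0.0065 over all tested genes.

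The libraries held 12537852 to 20552702 estimated counts, so 3 counts, taken as the floor, correspond to 0.151 to 0.237 CPM (counts scaled to a common library total, normalized by TMM), and every member stood far above it. *Meioc* itself had 468 to 720 CPM in wild-type libraries and 300 to 413 CPM in null ones (log2 fold change 0.76, adjusted p = 0.021, edgeR), so the null allele still gave reads on the gene. Wild-type replicate 1 lay nearer to the null libraries than the other wild-type libraries did for *Rad21l*, *Smc1b*, *Stag3* and *Smc3*. No call among the subunits changed when it was left out.

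The genes lie on 7 chromosomes of GRCm38, as annotated in GENCODE vM21. *Smc1b* spans chr15:85064689-85131964 and *Rad21* lies on the same chromosome at chr15:51962240-51991747. *Rec8* spans chr14:55618037-55625395, *Rad21l* chr2:151645404-151668533 and *Stag3* chr5:138280240-138312393. *Smc1a* (chrX:152016428-152062694) and *Stag2* (chrX:42149317-42277185) are X-linked. *Smc3* spans chr19:53600398-53645833 and *Stag1* chr9:100597798-100959375.

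Promoters of 7 of the 9 members were found in the RefSeq table for GRCm38.p6, which gives 250 bases before and 50 after a transcription start. They are shown because the study follows the repressors E2F6 and MGA and the activator STRA8-MEIOSIN, whose binding motifs can be looked for in them. The letters TCCCGC, the core to which E2F proteins bind, were searched on both strands and found in 6 of the 7, and in 20% of all 32851 promoters in the table. The matches are shown in capitals within 30-base windows, each written 5′ to 3′ on the strand of its gene. GCGGGA in capitals is the same motif on the opposite strand. The windows of *Rec8* (chr14:55618116-55618145, plus strand), *Smc1b* (chr15:85131987-85132016, minus strand), *Stag3* (chr5:138280495-138280524, plus strand), *Stag1* (chr9:100643421-100643450, plus strand), *Smc1a* (chrX:152016448-152016477, plus strand) and *Smc3* (chr19:53600268-53600297, plus strand) read as follows.
Rec8: gtgtgcacctgaTCCCGCtggagggcgaca
Smc1b: aaaagaatttctTCCCGCgctttttttttt
Stag3: tatcccgtgcctTCCCGCgtttttttctaa
Stag1: aaaggccacgttTCCCGCgccgctgctgcg
Smc1a: cggcttgcactgcgctattTCCCGCgcggg
Smc3: tctaagagggccGCGGGAgaggggcctttc

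The match began 2 bases before the RefSeq start in *Stag3*, 15 before it in *Stag1*, 38 in *Rec8*, 47 in *Smc1b* and 116 in *Smc3*, and 40 bases after it in *Smc1a*. *Smc3* had another match 30 bases after its start. The printed windows of *Rec8*, *Stag3*, *Stag1* and *Smc1a* overlap annotated exons of these genes. The GENCODE spans of *Rec8*, *Stag3* and *Stag1* begin before their windows, so these matches begin upstream of the RefSeq start only. That of *Stag3* runs past the RefSeq start. The windows of *Stag3*, *Smc1b*, *Stag1* and *Smc1a* share the longer string TTCCCGCG, which 1.01% of all promoters hold on either strand. That string overlaps the shorter motif and was chosen after the sequences were seen, and the shares were not matched for base composition. Meiosis-specific and mitotic subunits, and members that passed the test and members that did not, both carried it.

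*Rad21l*, the member with the largest log2 fold change, was the one without TCCCGC. The 250 bases before its start (chr2:151668534-151668783, minus strand) are shown beside the 243 bases before the exons of *Smc1b* (chr15:85131965-85132207, minus strand), which hold 1 match, in capitals.
Rad21l: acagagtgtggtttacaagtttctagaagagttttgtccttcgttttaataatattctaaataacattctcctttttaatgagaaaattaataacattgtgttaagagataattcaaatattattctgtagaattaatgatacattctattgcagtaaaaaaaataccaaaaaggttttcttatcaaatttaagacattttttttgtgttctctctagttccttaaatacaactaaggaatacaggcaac
Smc1b: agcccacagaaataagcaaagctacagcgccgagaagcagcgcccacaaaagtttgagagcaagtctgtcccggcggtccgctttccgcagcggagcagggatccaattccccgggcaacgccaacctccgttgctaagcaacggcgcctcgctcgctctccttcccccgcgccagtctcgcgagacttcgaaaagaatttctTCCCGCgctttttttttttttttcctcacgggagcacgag

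The 300-base promoter of *Rad21l* was AT-rich, with 29.0% G and C and 2 CpG dinucleotides, and only 0.6% of the promoters in the table held less G and C. The other 6 members ranged from 58.3% in *Rec8* and *Smc1a* to 73.7% in *Stag1*, with 18 to 43 CpG, beside medians of 52.7% and 7 CpG over all promoters. The motif of STRA8-MEIOSIN, CNCCTCAG, was found in 0 of the 7 promoters and in 7.94% of all. The E-box CACGTG, to which MGA and its partner MAX bind, was found in *Stag3*, 170 bases before the start, and in 7.15% of all promoters. Such a match is a description of letters, and no match says only that the letters are not in this window.

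*Smc1b* encodes the meiotic SMC1 protein, which partners SMC3 in most meiotic rings. Its levels in wild-type replicates 1 to 4 were 541, 863, 891 and 963 CPM, and in *Meioc*-null replicates 1 to 3 they were 264, 206 and 263 CPM. Every wild-type library was above every null library, with wild-type replicate 1 the lowest of its group. This is a log2 fold change of 1.74 (SE 0.19, 95% interval 1.31 to 2.16, adjusted p = 0.00232, edgeR). The mean levels were 814 ± 187 CPM (SD, n = 4) in wild type and 245 ± 33.5 CPM (SD, n = 3) in the null. On the log2 fold change, *Smc1b* ranked 76 from the top among the 13630 tested genes.

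Its mitotic paralog *Smc1a* did not pass the test. *Smc1a* was counted at 148, 156, 143 and 130 CPM in the wild-type libraries and at 135, 130 and 152 CPM in the null libraries, and the groups overlapped. The log2 fold change was 0.051 (SE 0.090, 95% interval −0.15 to 0.25, adjusted p = 0.733, edgeR). Its sign turned with the scaling, to −0.026 with library size only and to about −0.20 on TPM, where the median of all genes shifted as well.

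*Smc3*, the SMC subunit common to mitotic and meiotic rings, lay at 374, 457, 463 and 533 CPM in the wild-type libraries, against 324, 335 and 372 CPM in the null. The groups did not overlap, but wild-type replicate 1 stood only just above *Meioc*-null replicate 3. *Smc3* had a log2 fold change of 0.41 (SE 0.11, 95% interval 0.15 to 0.67, adjusted p = 0.0487, edgeR), close to the threshold. The call was kept in 2 of 15 alternative settings, namely DESeq2 (adjusted p = 0.0122) and the fit without wild-type replicate 1 (log2 fold change 0.50, adjusted p = 0.00978, edgeR), and the adjusted p ranged from 0.00978 to 0.334 over all 15.

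**Figure D1:**
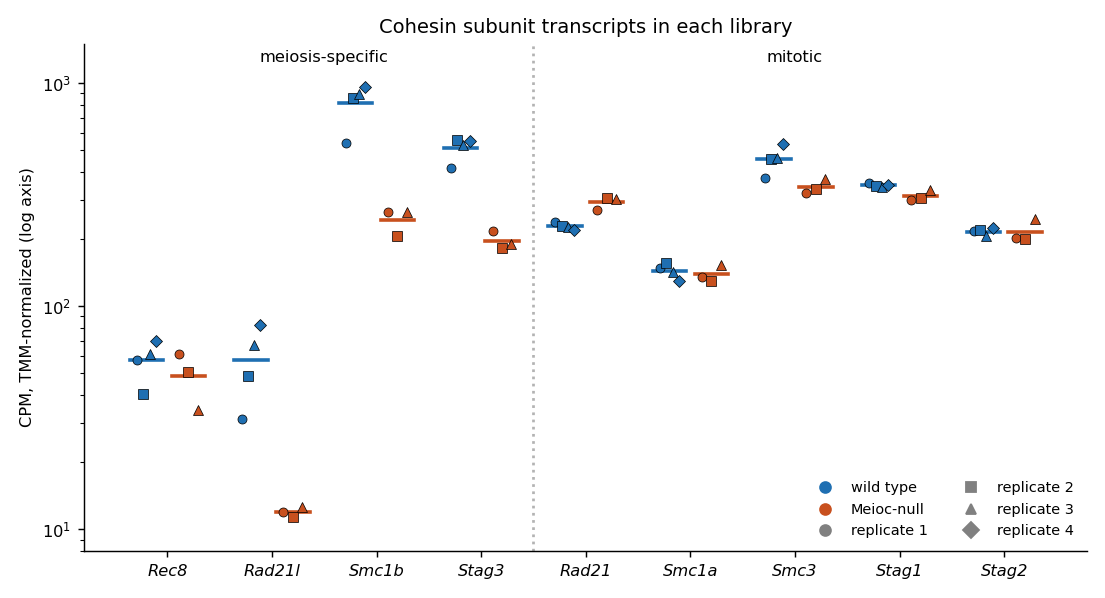
Level of each cohesin subunit in each library, as TMM-normalized CPM on a log axis, with wild type in blue, *Meioc*-null in orange, a marker shape for each replicate number and a line at the group mean. *Rad21l*, *Smc1b* and *Stag3* are separated widely between the groups, *Rec8* overlaps, and the mitotic subunits lie close together, with *Rad21* higher in all 3 null libraries.

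Meiotic cells use both REC8, the kleisin that keeps sister chromatids together until the meiotic divisions, and RAD21L, which is found on the axes in early prophase. *Rad21l* passed the test and *Rec8* did not. *Rad21l* was counted at 31.3, 48.9, 67.2 and 82.4 CPM in the wild-type libraries, against 11.9, 11.4 and 12.6 CPM in the null. The null libraries were nearly equal, whereas the wild-type libraries varied widely, and the lowest of them was still above all null libraries. *Rad21l* had a log2 fold change of 2.27 (SE 0.29, 95% interval 1.62 to 2.92, adjusted p = 0.00501, edgeR), which ranked it 29 from the top among all tested genes. Its lowest library held 157 counts, in *Meioc*-null replicate 2, so counting error was small beside the difference.

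*Rec8* was counted at 57.3, 40.3, 61.4 and 69.7 CPM in the wild-type libraries, against 61.0, 50.5 and 34.4 CPM in the null. The groups overlapped, with *Meioc*-null replicate 1 above 2 of the wild-type libraries. The log2 fold change of 0.23 (SE 0.21, adjusted p = 0.481, edgeR) had a 95% interval from −0.24 to 0.71, so a rise of up to 0.71 on the log2 scale was not resolved in these libraries. It was not called in any of 15 alternatives. The interval of *Rec8* ended below the start of that of *Rad21l*.

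The mitotic kleisin *Rad21*, which the somatic cells and spermatogonia use, moved the other way. In germ cell clusters of its single-cell data, the study lists *Rad21* among the bound mRNAs that MEIOC lowers. Whether that bears on the values here was not tested. *Rad21* levels were 239, 229, 226 and 219 CPM in wild-type testes, against 269, 306 and 303 CPM in the null, and every null library was above every wild-type library. *Rad21* had a log2 fold change of −0.36 (SE 0.075, 95% interval −0.53 to −0.19, adjusted p = 0.0207, edgeR), or 1.28-fold higher in the null. The call was lost without any one of wild-type replicates 2, 3 and 4 and *Meioc*-null replicates 2 and 3, where the adjusted p lay between 0.0555 and 0.0777, and the log2 fold change stayed between −0.41 and −0.33 with any single library left out. With the replicate number as a block, which does not pair the pups, it was −0.34 and not called (adjusted p = 0.172, edgeR).

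STAG3 replaces STAG1 and STAG2 in meiotic rings and is needed for their stability. *Stag3* was counted at 416, 556, 527 and 553 CPM in the wild-type libraries, against 218, 182 and 190 CPM in the null, with no overlap and with wild-type replicate 1 the lowest of its group. The log2 fold change was 1.38 (SE 0.12, 95% interval 1.12 to 1.65, adjusted p = 0.000818, edgeR), rank 141 of 13630 from the top. Of the 9 subunits it had the smallest adjusted p.

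Neither mitotic STAG gene passed the test. *Stag1* was counted at 356, 346, 343 and 350 CPM in the wild-type libraries, against 301, 306 and 332 CPM in the null, and *Stag2* at 216, 219, 206 and 224 CPM in the wild-type libraries, against 202, 200 and 245 CPM in the null. The libraries of *Stag1* did not overlap, while *Meioc*-null replicate 3 was the highest of all for *Stag2*. The log2 fold change was 0.16 for *Stag1* (95% interval 0.0020 to 0.31, adjusted p = 0.16, edgeR) and 0.0044 for *Stag2* (95% interval −0.19 to 0.20, adjusted p = 0.978, edgeR). The sign of *Stag1* turned on the TPM scale, at −0.10, and that of *Stag2* turned in 10 of 15 alternatives, with values from −0.26 to 0.11.

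Groups that did not overlap in CPM were counted for 3 of 4 meiosis-specific and 3 of 5 mitotic subunits, where 26.2% of all tested genes did not overlap. *Rad21l*, *Smc1b* and *Stag3* were called in all 15 alternatives. Leaving out a library moved their log2 fold changes from 2.02 to 2.47, from 1.63 to 1.89 and from 1.33 to 1.47.

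**Figure D2:**
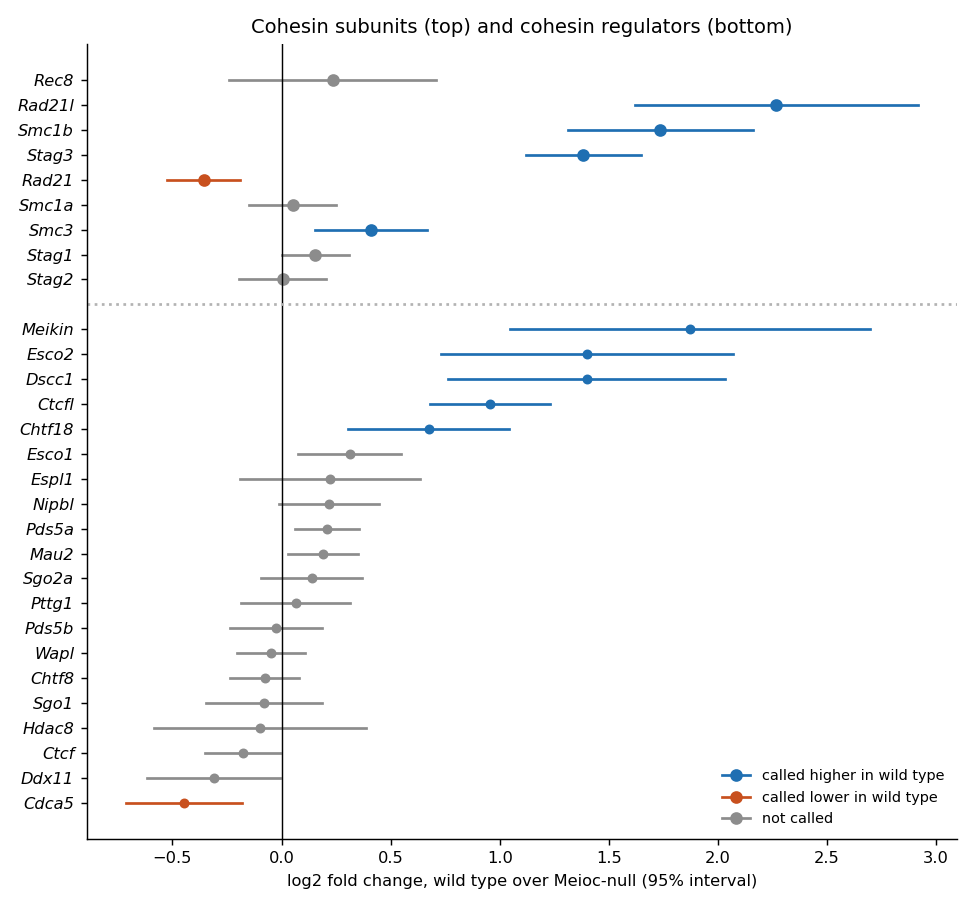
Log2 fold change of wild type over *Meioc*-null with its 95% interval for the 9 cohesin subunits (top) and 20 cohesin regulators (bottom), coloured by the call at an adjusted p under 0.05. *Rad21l*, *Smc1b* and *Stag3* stand at 1.38 to 2.27, and *Rad21* and *Cdca5* are the genes called lower in wild type.

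Levels can be compared between genes on TPM, which divides by the effective length of kallisto and not by the annotated length. The effective length carries the sequence-bias correction, and the orders below rest on it. In wild-type testes *Smc1b* was the most abundant cohesin transcript, at 536 ± 100 TPM (SD, n = 4), above 98.5% of tested genes. *Smc3* followed at 217 ± 22.7 TPM and *Stag3* at 180 ± 13.0 TPM, each step held on TPM in all 4 libraries without overlap. In CPM the wild-type mean of *Stag3* was higher, at 513 against 457 for *Smc3*. Its annotated transcript is shorter (4211 against 4851 bases), so annotated lengths would reverse that step. *Rad21* (116 ± 11.2 TPM), *Stag1* (114 ± 8.46 TPM), *Rad21l* (89.3 ± 32.2 TPM) and *Stag2* (84.9 ± 6.16 TPM) came next, and neighbours in this stretch overlapped between libraries. *Smc1a* at 55.1 ± 5.48 TPM and *Rec8* at 35.0 ± 7.64 TPM had the lowest means and did not overlap each other, while *Smc1a* overlapped *Rad21l*, which was below it in wild-type replicate 1. On TPM, *Rec8*, the meiotic kleisin needed for sister cohesion, was thus the scarcest subunit transcript in wild type. In CPM, its wild-type mean of 57.2 lay beside 57.4 for *Rad21l*.

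In the *Meioc*-null libraries the order was another. *Smc3* (197 ± 18.2 TPM, SD, n = 3), *Smc1b* (194 ± 12.8 TPM) and *Rad21* (176 ± 22.9 TPM) were at the top with overlapping neighbours. *Stag1* (123 ± 9.12 TPM), *Stag2* (102 ± 9.79 TPM), *Stag3* (82.6 ± 6.54 TPM) and *Smc1a* (63.3 ± 3.49 TPM) followed without overlap. On TPM, *Stag3* thus stood below both mitotic STAG genes there and above both in wild type. Its order below *Stag2* rests on the effective lengths. The null means were 197 CPM for *Stag3* and 216 CPM for *Stag2*, whose annotated transcripts are longer (5825 to 6171 against 4211 bases). *Rec8* (34.7 ± 10.1 TPM) and *Rad21l* (22.6 ± 0.937 TPM) were last and overlapped. The 4 meiosis-specific subunits summed to 646 to 984 TPM in wild type and to 324 to 354 TPM in the null, whereas the 5 mitotic subunits summed to 565 to 609 and to 596 to 711 TPM. *Smc1b* makes up most of the first sum. The sums compare the groups on TPM, where the median log2 fold change of all genes was itself −0.25 on log2(TPM + 0.1) and −0.23 on log2(TPM + 1). In the reported fit on TMM-scaled counts, 4 of the 5 mitotic subunits had positive log2 fold changes.

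Shares within a library do not depend on how libraries are scaled to each other, but on TPM they rest on the effective lengths. Of the TPM of both SMC1 genes, *Smc1b* took 86.5%, 90.7%, 91.5% and 92.8% in wild type and 77.2%, 73.5% and 75.5% in the null. It was the main SMC1 transcript in all 7 libraries, at 9.94 ± 2.69 times the *Smc1a* level in wild type and 3.08 ± 0.310 times in the null. *Stag3* took 42.3%, 49.0%, 49.3% and 49.1% of the TPM of the 3 STAG genes in wild type and 30.3%, 26.3% and 24.3% in the null. Over *Stag1* alone, *Stag3* stood at 1.27 to 1.71 times in wild type and at 0.607 to 0.787 times in the null.

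The meiotic kleisins together took 41.1%, 46.4%, 55.7% and 60.9% of kleisin TPM in wild type and 29.0%, 23.7% and 21.2% in the null. That difference was in *Rad21l*, with 24.2% to 45.9% in wild type and 8.92% to 10.5% in the null, both without overlap. The share of *Rec8* was 14.5 ± 2.24% in wild type and 14.9 ± 4.22% in the null and overlapped. Over *Rad21* alone, *Rec8* stood at 0.215 to 0.383 times in wild type and at 0.136 to 0.269 times in the null, also with overlap. *Rad21l* stood at 1.43 to 3.07 times *Rec8* in every wild-type library and at 0.514 to 0.978 times in every null library, so on TPM the more abundant meiotic kleisin transcript changed between the groups. TPM divides by the effective length of kallisto, which carries its sequence-bias correction. In CPM, which is not corrected for length, *Rec8* was above *Rad21l* in wild-type replicate 1 (57.3 and 31.3 CPM) and below it in wild-type replicates 2, 3 and 4. On the annotated lengths alone, 2184 bases for *Rec8* and 1659 for Rad21l-202, the order in wild-type replicate 1 would be that of CPM. The wild-type means were 57.2 CPM for *Rec8* and 57.4 CPM for *Rad21l*. These shares were not tested, and they carry the same library differences as the levels.

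**Figure D3:**
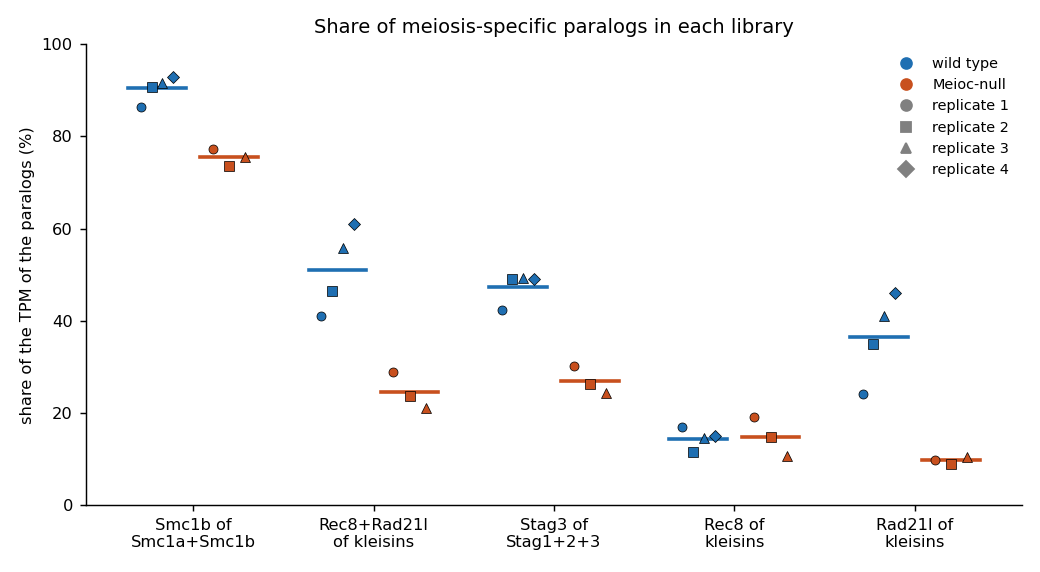
Share of the meiosis-specific paralogs in the TPM of their family in each library, in percent, with a line at the group mean. Wild-type and *Meioc*-null libraries are separated for *Smc1b*, for the meiotic kleisins together, for *Stag3* and for *Rad21l*, and overlap for *Rec8*.

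The ring is loaded by NIPBL and MAU2, released by WAPL with PDS5 proteins, acetylated on SMC3 by ESCO1 and ESCO2, guarded by sororin (*Cdca5*) and shugoshins, and cut by separase. Of 20 such regulators, all tested, 5 were called higher in wild type (beside 7.77% of all genes) and 1 lower (beside 3.33%), and their median log2 fold change was 0.16. The 5 were *Meikin*, *Esco2*, *Dscc1*, *Ctcfl* and *Chtf18*. *Ctcfl*, a germ cell paralog of the insulator protein CTCF, which halts cohesin on DNA, was counted at 112, 101, 85.1 and 81.3 CPM in the wild-type libraries, against 53.5, 46.1 and 46.9 CPM in the null. Its log2 fold change was 0.95 (SE 0.12, adjusted p = 0.00505, edgeR), and of the 6 called regulators it was the one called in all 15 alternatives.

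*Esco2*, the acetyltransferase that acts at replication, lay at 149, 312, 373 and 425 CPM in the wild-type libraries, against 136, 97.8 and 124 CPM in the null, so wild-type replicate 1 was nearly at the null level. Its log2 fold change was 1.40 (SE 0.30, adjusted p = 0.0224, edgeR). *Dscc1* and *Chtf18* encode parts of the alternative clamp loader that supports cohesion at replication forks, and their log2 fold changes were 1.40 (SE 0.28, adjusted p = 0.0189) and 0.67 (SE 0.16, adjusted p = 0.0318, edgeR). *Dscc1* ranged from 9.96 to 25.4 CPM in wild-type testes, against 5.36 to 7.85 CPM in the null, and *Chtf18* from 39.6 to 60.6 CPM and from 26.7 to 36.4 CPM. In both genes wild-type replicate 1 was the lowest of its group, as it was in *Esco2*.

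*Meikin*, whose product protects meiotic centromere cohesion, was near the limit of detection, with 14, 18, 15 and 31 counts in wild type and 7, 6 and 4 counts in the null (log2 fold change 1.87, SE 0.37, adjusted p = 0.0180, edgeR). *Cdca5* was lower in wild type, at 8.69, 9.50, 9.12 and 9.49 CPM beside 11.4, 13.3 and 13.0 CPM in the null (log2 fold change −0.45, SE 0.12, adjusted p = 0.0412, edgeR). Leaving out single libraries kept the call in 2 of 7 fits for *Esco2*, 3 for *Dscc1*, 2 for *Chtf18*, 4 for *Meikin* and 1 for *Cdca5*. Without wild-type replicate 1, *Cdca5* had a log2 fold change of −0.42 and was not called (adjusted p = 0.0571, edgeR).

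The remaining 14 regulators were not called. The loaders *Nipbl* and *Mau2* had log2 fold changes of 0.22 (95% interval −0.013 to 0.45) and 0.19 (0.028 to 0.35), and the release factor *Wapl* had −0.048 (−0.20 to 0.11). For *Pds5a* and *Esco1* the values were 0.21 and 0.31, with adjusted p of 0.0683 and 0.0813 (edgeR). *Ctcf* stood at −0.18 (−0.35 to −0.0049). *Sgo1*, *Sgo2a*, *Espl1* and *Pttg1*, which act at anaphase, lay between −0.080 and 0.22.

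For each meiosis-specific subunit, the 3 genes with the most similar pattern were sought by the root mean square difference of centred log2 CPM over the 7 libraries, among the 10244 tested genes whose mean level reached 10 CPM. For *Smc1b* these were *Tex12* (0.064), a synaptonemal complex gene, *Hormad1* (0.097), a chromosome axis gene, and *Majin* (0.12), a meiotic telomere gene. For *Rad21l* they were *Terb1* (0.13), another meiotic telomere gene, *Tchh* (0.22) and *Sap25* (0.25), and for *Stag3* they were *Cntd1*, *Zfp786* and *Sdf2l1*, each at 0.10. The genes nearest to *Rec8* were *Tspan17* (0.068), *Dnajc17* (0.12) and *Bcl3* (0.14). All points share the same 7 libraries, and the difference between the groups is part of the likeness.

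The summed levels of the germ cell marker lists differed between the groups. Counts of called markers stand beside 7.77% of all genes called higher in wild type and 3.33% called lower. The summed level of 10 general germ cell markers was 2335 to 2556 CPM in wild-type testes, against 1719 to 1892 CPM in the null, 1.35-fold higher in wild type, with 3 of the 10 called higher. A sum gives most weight to the abundant markers, and the median log2 fold change of the 10 was only 0.17. *Rad21l*, *Smc1b* and *Stag3* differed by 2.61-fold to 4.82-fold. Markers of undifferentiated spermatogonia summed to 157 to 196 CPM in wild-type testes, against 228 to 381 CPM in the null (0 of 7 tested called higher and 2 lower, 3 of 10 below the filter), and those of differentiating spermatogonia to 601 to 881 and 422 to 543 CPM (2 of 7 higher, with *Stra8* in the list). Of 10 markers of pachytene and later cells, 8 were below the filter, *Pgk2*, *Tnp1*, *Prm1* and *Spata16* were at or under 3 counts in every library, and the sum was 54.9 to 78.1 CPM in wild-type testes, against 49.0 to 51.2 CPM in the null (1 higher).

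The somatic lists overlapped between the groups, apart from macrophages, whose groups were only just apart. Sertoli cell markers summed to 6694 to 6847 CPM in wild-type testes, against 6540 to 7551 CPM in the null (1 of 12 lower), Leydig cell markers to 283 to 574 and 320 to 635 CPM (1 of 7 higher), and peritubular myoid markers to 541 to 622 and 514 to 598 CPM (1 of 6 lower). Macrophage markers summed to 148.6 to 152.8 CPM in wild-type testes (0 of 7 called). In *Meioc*-null replicates 1 to 3 they summed to 205.5, 154.0 and 152.9 CPM, so only replicate 1 stood clearly higher. Endothelial markers summed to 70.5 to 87.5 CPM in wild type and 74.5 to 88.8 CPM in the null (0 of 5 tested called, 1 of 6 below the filter). These counts, too, are to be read against the shares over all tested genes, 7.77% higher and 3.33% lower. A single call among 6 to 12 genes is too few to tell whether a cell type differed. The part of cell makeup in the cohesin values was not tested.

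STRA8 and MEIOSIN act together as the activator of meiotic entry, and *Meiosin* passed the test while *Stra8* did not. *Meiosin*, named *Gm4969* in the annotation, was counted at 144 to 266 CPM in wild-type testes, against 24.9 to 33.9 CPM in the null (log2 fold change 2.95, adjusted p = 0.000580, edgeR). *Stra8* was at 126 to 411 CPM and 77.3 to 158 CPM (log2 fold change 1.14, adjusted p = 0.0948, edgeR) and overlapped between the groups. Whether their levels bear on the cohesin genes was not tested.

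**Figure D4:**
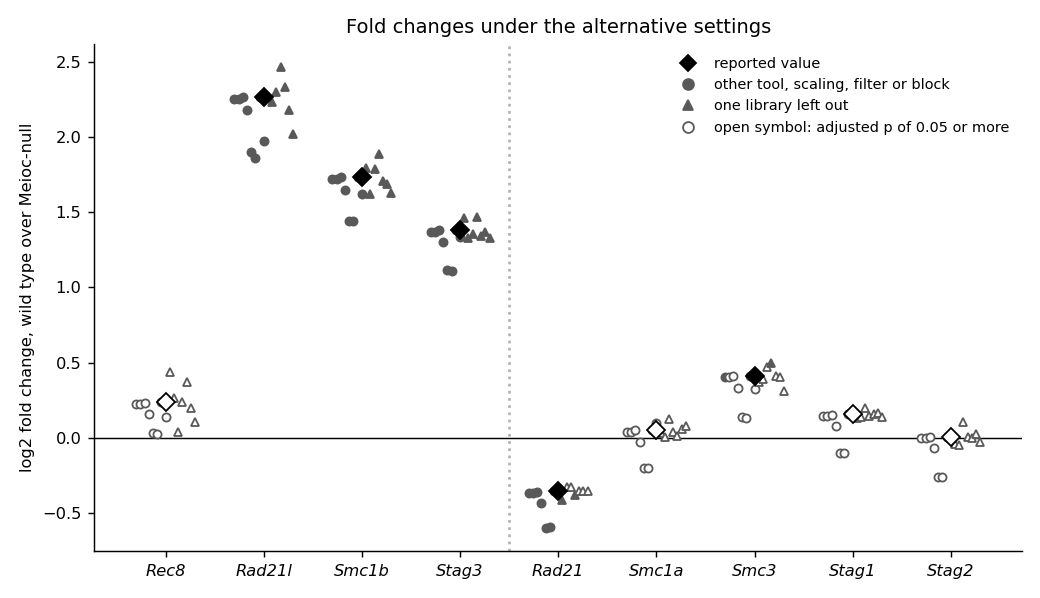
Log2 fold change of each cohesin subunit in the reported fit (diamond), under other tools, scalings, filters and the block (circles) and with single libraries left out (triangles), where open symbols have an adjusted p of 0.05 or more. *Rad21l*, *Smc1b* and *Stag3* stay filled and above 1.1 throughout, *Smc3* is filled in 2 of 15 alternatives, *Rad21* in 9, and *Smc1a*, *Stag1* and *Stag2* lie on both sides of 0.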

How the data were processed

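Bulk RNA-seq libraries were grouped by the genotype in their labels. The authors trimmed reads with cutadapt 1.8 and estimated transcript levels with kallisto 0.44.0, strand-specific and with sequence-bias correction, on GENCODE Basic vM15 (mm10). The deposited tables hold estimated counts and TPM of 43139 protein-coding transcripts per library. The authors' TPM sums to the same total in every library and keeps no depth. Effective and transcript lengths were deposited too.

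Transcripts were matched by Ensembl identifier to GENCODE vM21 on GRCm38. The 119 unmatched transcripts, with 0.247% to 0.282% of the counts of a library, were left out of library sizes and tests. Estimated counts were summed by gene and rounded, and edgeR 4.0.16 (R 4.3.3) was used for TMM scaling and its quasi-likelihood test with genotype as the single term. Each SE is the fold change over the root of F. DESeq2 1.42.0, limma 3.58.1 on log2(TPM + 1) and log2(TPM + 0.1), RLE, library size only, other filters, a replicate block and leaving out each library were alternatives. Each library came from its own pup, and all 7 differed by more than counting noise. Floors cover counting error only. The fit was tested on simulated data.

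The members, lists and tests were chosen with earlier results of these data known. Named genes were the 9 subunits, the regulators called, *Meioc*, *Meiosin* and *Stra8*, and the 3 genes nearest to each meiosis-specific subunit. The uncalled regulators *Nipbl*, *Mau2*, *Wapl*, *Pds5a*, *Esco1*, *Ctcf*, *Sgo1*, *Sgo2a*, *Espl1* and *Pttg1* and the late germ cell markers *Pgk2*, *Tnp1*, *Prm1* and *Spata16* fall outside this rule and were named after their values were seen. For *Chtf8*, a symbol of 2 genes, the gene with more counts was used.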

Additional observations from a re-analysis of the deposited data

Results flagged for a closer look

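In 20 tests for a library far from the other 3 of the wild-type group, 1 was past the limit, which has a rate of 1 in 20. The tests share the same libraries and are not independent, so the count cannot tell whether chance gave it. In wild-type replicate 1, *Stag3* took 42.3% of the TPM of the STAG genes, whereas the other 3 wild-type libraries lay at 49.0%, 49.1% and 49.3%. The gap was 0.964 of the range of the group, above Dixon's limit for 4 samples. The 42.3% was still above the highest null library, at 30.3%.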

How the results depend on the processing

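The count of 3 meiosis-specific subunits called higher in wild type was the same in all 15 alternatives. The calls over all genes moved from 1513 to 2331 with DESeq2, 2506 on log2(TPM + 0.1), 2522 on log2(TPM + 1), 109 with the replicate block and, with single libraries left out, 131 to 2172, the lowest without *Meioc*-null replicate 3 and the highest without wild-type replicate 1. The 2 mitotic subunits called became 1 (*Rad21*) under RLE, library size only, both TPM scales, filterByExpr and no filter, 0 with the replicate block, and 0 to 2 with single libraries left out. The 6 regulators called became 1 with the replicate block and 1 to 6 with single libraries left out. The replicate numbers do not pair the pups: the correlations of same-numbered libraries' deviations were −0.012, −0.0892 and −0.168.

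On the TPM scales the median of all genes shifted to −0.25 and −0.23, and with library size only to −0.084, and the share of calls in the direction of wild type was 17.7%, 17.4% and 47.3%, beside 70.0% in the reported fit, 62.5% with DESeq2 and 86.2% with the block. The log2 fold change of *Smc1a* turned to −0.026 with library size only, −0.204 on log2(TPM + 0.1) and −0.201 on log2(TPM + 1). *Stag1* turned to −0.102 and −0.101 on the TPM scales. *Stag2* turned to −0.0059 with DESeq2, −0.0058 with RLE, −0.072 with library size only, −0.262 and −0.260 on the TPM scales and −0.0065 with the replicate block, and lay between −0.047 and 0.11 with single libraries left out. Relative to the shifted medians, *Rad21* stood at −0.36 and −0.37 and *Smc3* at 0.38 and 0.36 on the TPM scales. The cause of the other changes was not tested.

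From estimated counts, which are not corrected for effective length as TPM is, the meiotic share was 84.4% in wild type and 63.6% in the null for SMC1. For the kleisins it was 33.1% and 17.2%. For the STAG genes, counts and TPM gave nearly the same share, 47.4% and 47.4% in wild type and 27.2% and 27.0% in the null. From main transcripts alone, that of *Stag3* was 61.5% and 39.1%. Of the genes named as called, *Meikin* had the fewest counts, 4 to 31 per library.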

Other observations

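The annotated transcripts of the members differed in how well they can be told apart. *Rec8*, *Smc1b*, *Rad21*, *Smc1a* and *Smc3* each had 1 transcript in the deposited tables. *Rad21l* had 2, and Rad21l-202 held 84.0% of its TPM in wild-type replicate 1, where the shorter Rad21l-201 held the remaining 16.0%, and 99.9999% or more in the other libraries. *Stag3* had 2, with Stag3-201 at or above 99.9987% of TPM in every library. For *Stag1*, Stag1-206 held 59.0% to 81.6% of TPM in wild type and 55.4% to 82.2% in the null, and the ranges overlapped. *Stag2* was divided between 3 transcripts, of which Stag2-201 held 32.6% to 39.1% of TPM in wild type and 37.9% to 43.6% in the null. kallisto divides shared reads between such transcripts by estimation, so these values carry that uncertainty beside the spread of the libraries.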
